A study of Mus musculus with 8 samples.

Results

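The report concerns 10 genes that are expressed around the central vein of the liver and are known targets of Wnt signalling, namely Lgr5, Rnf43, Axin2, Tbx3, Glul, Oat, Rhbg, Slc1a2, Gulo and Lect2. They were taken by name, and every probe set whose platform annotation gave 1 of these symbols and no other was kept apart, which gave 21 probe sets for all 10 genes, of 45037 probe sets and 18193 named genes in all. Liver RNA of 8 male C57BL/6 mice between 92 and 101 days of age had been hybridised to Affymetrix mouse arrays, with 1 array per mouse. The 4 MTAP+/- mice carry 1 intact copy of Mtap, the gene of methylthioadenosine phosphorylase, and the 4 MTAP+/+ mice carry both. The labels name no treatment, litter or collection time, and no source used here says which part of Mtap is altered. Values are RMA signals on the log2 scale, in which RMA (robust multi-array average) corrects background, normalises arrays and summarises the probes of a probe set. Changes are MTAP+/- minus MTAP+/+, and p-values are from limma unless a permutation test is named.

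Hepatocytes differ along the path of blood from the portal vein to the central vein. Endothelial cells of the central vein release Wnt ligands and R-spondins, and the nearest hepatocytes answer through beta-catenin and TCF/LEF transcription factors. Those hepatocytes take up ammonium and glutamate and make glutamine, and several of the genes that do so are Wnt targets. In whole-liver RNA, fewer cells of this kind and less RNA per cell cannot be told apart.

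Mtap itself was lower at all 4 of its probe sets in MTAP+/- liver (log2 changes -0.80, -1.002, -1.63 and -1.50, adjusted p from 0.00443 to 0.0414), and no MTAP+/- liver reached the lowest MTAP+/+ liver at any of them. Albumin (Alb), the main secreted product of hepatocytes, lay between 14.38 and 14.52 in both genotypes, near the highest signal of 14.72 on any array. Array medians were 3.91 to 3.98. In a principal component analysis of the whole array the first component held 28.3% of the variance and the second 22.0%. On the first, MTAP+/- replicates 1, 3 and 4 lay with MTAP+/+ replicate 4 between -24.9 and -23.4, and the others between 3.58 and 35.6. On the second the genotypes did not overlap, with -44.1 to -4.03 in MTAP+/- livers, against 11.3 to 29.5 in MTAP+/+ livers. MTAP+/- replicate 2 stood apart there (-44.1), so results are also given without single arrays.

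None of the 21 probe sets passed the threshold of 0.05 after Benjamini-Hochberg adjustment over all probe sets, which 16 of 45037 (0.0355%) did, and the lowest adjusted p among the 21 was 0.261. That does not show that their levels were alike, and the 95% intervals given with each gene show the sizes that remain possible. Most pointed one way all the same: 18 of 21 (85.7%) were lower in MTAP+/- liver, against 52.8% of all probe sets, and their median log2 change was -0.24, against -0.01 over all probe sets. At an unadjusted p under 0.05 limma listed 8 of the 21 (38.1%) as lower, where 3.85% of all probe sets were, and 1 as higher, where 4.56% were. In 3 of the 21 (14.3%) every MTAP+/- liver lay below every MTAP+/+ liver, which held for 2.22% of all probe sets, and in 1 every MTAP+/- liver lay above, which held for 2.12%. Probe sets of 1 gene share transcripts and all probe sets share the same 8 livers, so these counts are a description and not a test. Of the 21, 7 lay under the median signal of all probe sets, where RMA is known to compress differences.

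**Figure D1:**
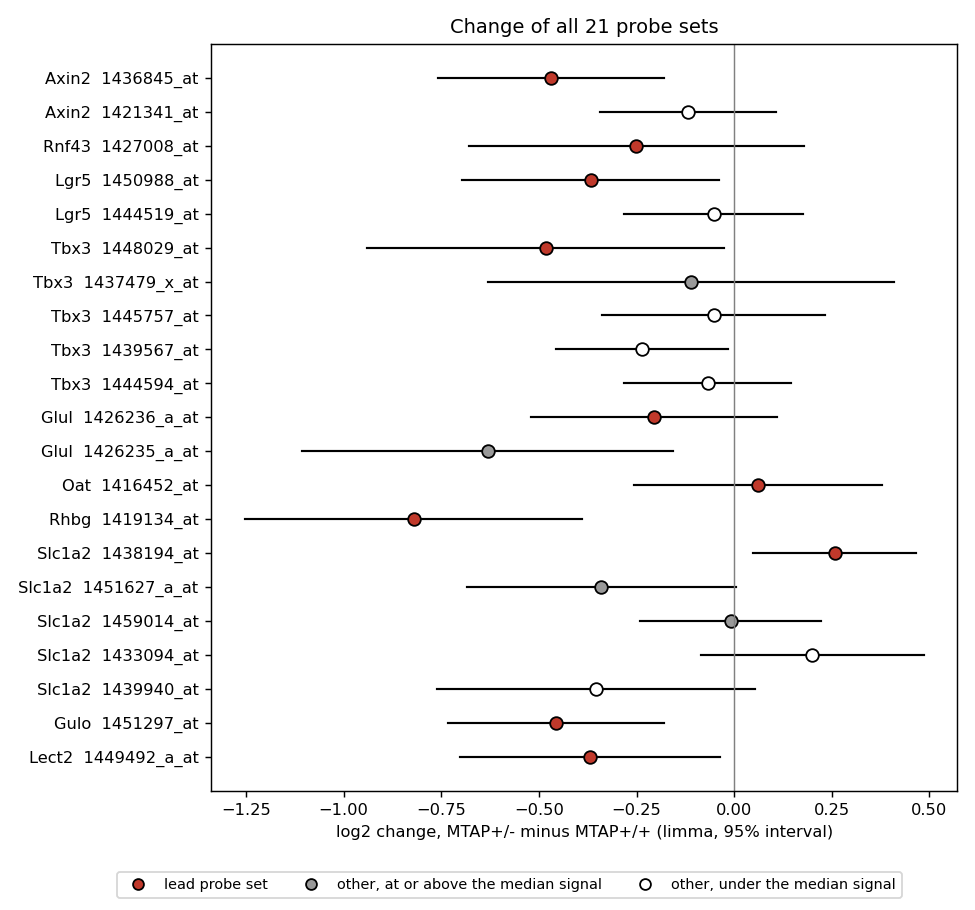
Log2 change of each of the 21 probe sets between MTAP+/- and MTAP+/+ liver (horizontal axis) with its 95% interval from limma, grouped by gene. Filled red points are the probe set of highest mean signal for each gene, grey points its other probe sets at or above the median signal of all probe sets, and open points those below it. Rhbg is farthest to the left (-0.82), and the first Slc1a2 probe set is farthest to the right (0.26).

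The brightest probe set of a gene, by its mean over 8 arrays, is called its lead probe set, and the others are numbered in order of brightness. Of the 10 lead probe sets 8 were lower in MTAP+/- liver (median log2 change -0.37), 6 of them at an unadjusted p under 0.05, where 4.89% of all genes were, and 1, of Slc1a2, was higher at that p, where 4.47% were. The exact two-sided permutation p was 0.0286 for Rhbg, Axin2 and Slc1a2, and 0.0571 for Gulo. By the same test it was 0.0857 for Lgr5 and Lect2, 0.143 for Tbx3, 0.257 for Glul, 0.343 for Rnf43 and 0.686 for Oat. The genes were chosen with results of these arrays known, so these p-values are a description. The mean of the 10 lead signals was 8.22, 8.09, 8.16 and 7.96 in MTAP+/- livers 1 to 4, and 8.53, 8.33, 8.37 and 8.43 in MTAP+/+ livers 1 to 4. The genotypes did not overlap in that mean, which is given with no test because the genes were chosen with results of these arrays known. MTAP+/- replicate 2 had the lowest of the 8 signals for 4 of the 10 genes, and MTAP+/- replicate 4 for 3.

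**Figure D2:**
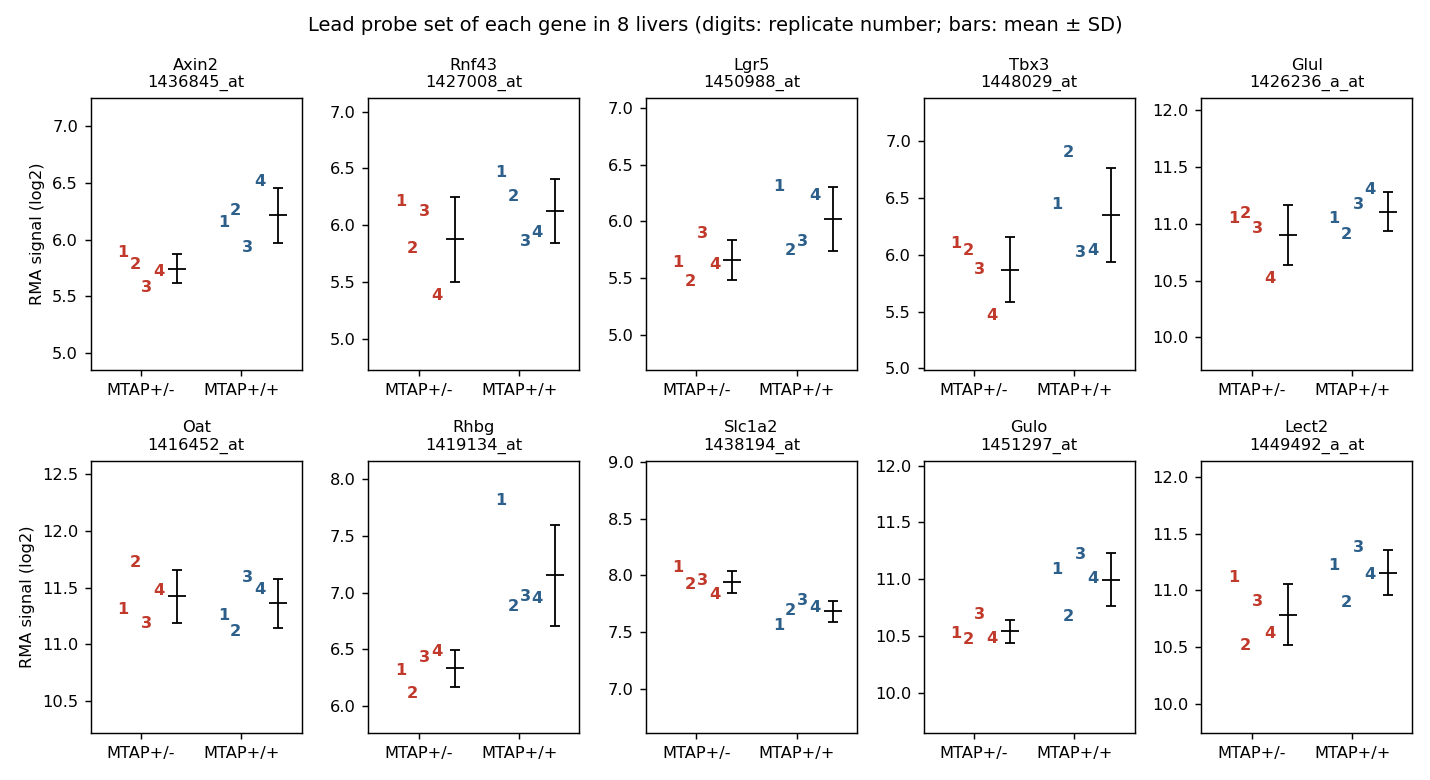
RMA signal (log2, vertical axis) of the lead probe set of each gene in the 4 MTAP+/- livers (red) and the 4 MTAP+/+ livers (blue). Digits are replicate numbers, the bar beside each group is the mean ± SD (n = 4), and every panel spans the same height in log2 units on its own level. Axin2 and Rhbg have every MTAP+/- liver below every MTAP+/+ liver, Slc1a2 has the reverse order, and Oat is mixed.

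Promoter sequence was available for 6 of the genes. TCF/LEF factors bind sites with the core CTTTG, which reads CAAAG on the other strand. Within 250 bases before to 50 bases after an annotated start this core was present in 2 of 7 promoters, those of Slc1a2 and Lect2, and in 53.9% of all 32851 promoters. These 2 are shown because they hold the core, given in capitals (at positions -205 and -77 for Slc1a2 and -30 and -24 for Lect2, the start being 0), and that of Axin2 because the gene is the usual readout of the pathway and had no overlap between genotypes here. The lack of this core in the Axin2 window says only that these letters are not in it. The Slc1a2 and Axin2 windows lie inside the annotated genes, which begin at 102658239 on chromosome 2 and 108917828 on chromosome 11. Earlier starts of these genes were not examined. Sequences are from RefSeq, build GRCm38.p6, 5′ to 3′ on the strand of the gene.
Axin2 promoter, chr11:108920099-108920398, plus strand: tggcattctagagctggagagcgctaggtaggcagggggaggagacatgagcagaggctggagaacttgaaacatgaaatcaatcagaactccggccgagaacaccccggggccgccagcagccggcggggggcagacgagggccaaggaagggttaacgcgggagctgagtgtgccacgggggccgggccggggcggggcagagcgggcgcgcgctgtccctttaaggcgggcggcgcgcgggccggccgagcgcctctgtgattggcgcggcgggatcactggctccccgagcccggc
Slc1a2 promoter, chr2:102706188-102706487, plus strand: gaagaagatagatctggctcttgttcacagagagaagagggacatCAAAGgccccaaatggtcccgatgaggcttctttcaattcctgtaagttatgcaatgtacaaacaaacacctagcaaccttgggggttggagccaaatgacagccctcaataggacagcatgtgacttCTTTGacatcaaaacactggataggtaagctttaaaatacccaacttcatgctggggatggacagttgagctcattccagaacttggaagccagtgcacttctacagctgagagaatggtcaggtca
Lect2 promoter, chr13:56548489-56548788, minus strand: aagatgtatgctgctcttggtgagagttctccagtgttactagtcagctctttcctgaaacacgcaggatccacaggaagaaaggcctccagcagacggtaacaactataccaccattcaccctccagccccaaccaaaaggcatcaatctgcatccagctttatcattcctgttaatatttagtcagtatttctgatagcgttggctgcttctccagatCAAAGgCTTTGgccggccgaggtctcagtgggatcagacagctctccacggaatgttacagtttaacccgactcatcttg

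Among the genes that tune reception of the Wnt signal, Axin2, Lgr5 and Rnf43 stood at 72.2%, 77.5% and 84.1% of the MTAP+/+ level in MTAP+/- liver, without passing the adjusted threshold. Axin2, a scaffold of the complex that destroys beta-catenin and a feedback inhibitor of the pathway, had signals of 5.89, 5.78, 5.58 and 5.72 in MTAP+/- livers, against 6.15, 6.26, 5.93 and 6.52 in MTAP+/+ livers. All 4 MTAP+/- livers were below all 4 MTAP+/+ livers, with MTAP+/- replicate 1 and MTAP+/+ replicate 3 nearly level. The log2 change was -0.47 (95% interval -0.76 to -0.18), or 72.2% of the MTAP+/+ level, with an adjusted p of 0.364 by limma and an exact two-sided permutation p of 0.0286, the smallest that 4 against 4 allows. The other Axin2 probe set lay near the lowest signals on the arrays (mean 2.56) and was at -0.12.

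Lgr5, a receptor of R-spondins on pericentral hepatocytes, had signals of 5.64, 5.47, 5.89 and 5.62 in MTAP+/- livers, against 6.30, 5.75, 5.82 and 6.23 in MTAP+/+ livers. The groups overlapped, since MTAP+/- replicate 3 exceeded MTAP+/+ replicates 2 and 3. Its change of -0.37 (95% interval -0.70 to -0.04, 77.5% of the MTAP+/+ level) had an adjusted p of 0.540 by limma, and its second, dimmer probe set was at -0.05. Rnf43, a ubiquitin ligase that removes Frizzled receptors from the cell surface, had 6.20, 5.79, 6.12 and 5.38 in MTAP+/- livers, against 6.46, 6.25, 5.85 and 5.94 in MTAP+/+ livers. Here the spread within each genotype (SD 0.37 and 0.28, n = 4 each) was larger than the change of -0.25 (95% interval -0.68 to 0.18, adjusted p = 0.782 by limma). Without MTAP+/- replicate 4, the lowest liver, the change was -0.09.

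Tbx3, a T-box transcription factor and repressor, was represented by 5 probe sets, all lower in MTAP+/- liver by 0.05 to 0.48 log2 units in size. Its lead probe set had 6.10, 6.04, 5.87 and 5.46 in MTAP+/- livers, against 6.44, 6.90, 6.02 and 6.04 in MTAP+/+ livers. MTAP+/+ replicates 3 and 4 lay within the range of the MTAP+/- livers, and MTAP+/+ replicate 2 was the highest. The change was -0.48 (95% interval -0.94 to -0.03, adjusted p = 0.566 by limma), and -0.30 without MTAP+/+ replicate 2. The groups did not overlap at 1 other Tbx3 probe set, which lay under the median signal and had 3.10, 3.17, 3.18 and 3.02 in MTAP+/- livers, against 3.36, 3.55, 3.26 and 3.23 in MTAP+/+ livers (change -0.24, adjusted p = 0.564 by limma). The remaining 3 were at -0.11, -0.07 and -0.05, each with an interval that included 0.

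Of the 4 genes of ammonium and amino acid handling, Rhbg was the lowest relative to MTAP+/+ liver of all 21 probe sets, Glul was lower to a degree that depended on the probe set, Oat was level and Slc1a2 gave opposite directions. Rhbg, an ammonium transporter of the Rhesus family, had signals of 6.31, 6.11, 6.43 and 6.48 in MTAP+/- livers, against 7.82, 6.88, 6.97 and 6.95 in MTAP+/+ livers. Every MTAP+/- liver lay below every MTAP+/+ liver, and MTAP+/+ replicate 1 stood well above the other MTAP+/+ livers, which were close together. The change was -0.82 (95% interval -1.25 to -0.39), or 56.6% of the MTAP+/+ level, with an adjusted p of 0.261 by limma and an exact two-sided permutation p of 0.0286. By its p Rhbg ranked 281st of 45037 probe sets, and without MTAP+/+ replicate 1 its change was -0.60. Over 17 alternative settings its adjusted p by limma was 0.173 to 1.

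Glul encodes glutamine synthetase, which joins ammonium to glutamate in the hepatocytes next to the central vein. Its lead probe set had 11.05, 11.09, 10.96 and 10.52 in MTAP+/- livers, against 11.05, 10.91, 11.17 and 11.30 in MTAP+/+ livers. These groups overlapped. MTAP+/- replicate 4 lay below every MTAP+/+ liver, and the MTAP+/+ livers at 11.17 and 11.30 lay above every MTAP+/- liver. The change was -0.21 (95% interval -0.52 to 0.11, adjusted p = 0.749 by limma), and -0.08 without MTAP+/- replicate 4. The second Glul probe set had 10.09, 9.96, 10.25 and 9.38 in MTAP+/- livers, against 10.82, 10.03, 10.81 and 10.55 in MTAP+/+ livers. MTAP+/+ replicate 2 alone lay among the MTAP+/- livers, and the change was -0.63 (95% interval -1.11 to -0.16, 64.6% of the MTAP+/+ level, adjusted p = 0.456 by limma).

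Oat, the mitochondrial ornithine aminotransferase, had signals of 11.30, 11.72, 11.19 and 11.48 in MTAP+/- livers, against 11.26, 11.12, 11.59 and 11.49 in MTAP+/+ livers. The genotypes were mixed, and the change was 0.06 (95% interval -0.26 to 0.38, adjusted p = 0.944 by limma). That interval still includes the changes of Rnf43 and of the lead Glul probe set.

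Slc1a2, a glutamate transporter, was represented by 5 probe sets that did not move together. The lead probe set had 8.07, 7.92, 7.95 and 7.83 in MTAP+/- livers, against 7.55, 7.69, 7.78 and 7.72 in MTAP+/+ livers. It was the 1 probe set of the 21 at which every MTAP+/- liver lay above every MTAP+/+ liver (change 0.26, 95% interval 0.05 to 0.47, 120% of the MTAP+/+ level, adjusted p = 0.493 by limma, exact two-sided permutation p = 0.0286). The second had 6.83, 6.43, 6.82 and 6.47 in MTAP+/- livers, against 6.996, 6.58, 7.10 and 7.23 in MTAP+/+ livers, and went the other way with overlapping groups (change -0.34, adjusted p = 0.600 by limma). The third, the fourth and the fifth were at -0.01, 0.20 and -0.35, and the fourth and the fifth lay under the median signal. The fourth was at 0.13 without MTAP+/- replicate 1, 0.14 without MTAP+/- replicate 2 and 0.32 without MTAP+/- replicate 4, and the fifth at -0.18 without MTAP+/+ replicate 3.

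The disagreement between probe sets was examined after their values were seen, as the signal of each lead probe set minus that of another probe set of its gene in the same liver, over 11 such pairs. For Slc1a2 the first minus the second was 1.24, 1.49, 1.13 and 1.36 in MTAP+/- livers, against 0.56, 1.11, 0.67 and 0.49 in MTAP+/+ livers. The groups did not overlap, the means differed by 0.60, and the exact two-sided permutation p was 0.0286 (0.157 adjusted over the 11 pairs). The lead Slc1a2 probe set minus the third, the fourth and the fifth differed between genotypes by 0.27, 0.06 and 0.61 (exact permutation p = 0.143, 0.686 and 0.0286, adjusted p = 0.225, 0.686 and 0.157). For Glul the first minus the second was 0.95, 1.13, 0.71 and 1.13 in MTAP+/- livers, against 0.22, 0.88, 0.37 and 0.76 in MTAP+/+ livers, a difference of 0.43 with overlapping groups (exact permutation p = 0.0857, adjusted p = 0.210). None of the 11 pairs passed after adjustment, and the 4 against 4 design could not have taken a single pair below 0.0286. No source used here says which transcripts each probe set reads.

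The remaining genes, Gulo and Lect2, are expressed toward the central vein but belong to neither group, and both were lower in MTAP+/- liver. Gulo encodes gulonolactone oxidase, the last enzyme of vitamin C synthesis in the mouse, and had 10.52, 10.47, 10.69 and 10.48 in MTAP+/- livers, against 11.09, 10.67, 11.22 and 11.01 in MTAP+/+ livers. The MTAP+/- livers were close together, and the groups overlapped by a single pair, MTAP+/- replicate 3 and MTAP+/+ replicate 2. The change was -0.46 (95% interval -0.73 to -0.18, 72.9% of the MTAP+/+ level), with an adjusted p of 0.359 by limma and an exact two-sided permutation p of 0.0571. Lect2 encodes a chemotactic protein secreted by hepatocytes and had 11.11, 10.51, 10.91 and 10.62 in MTAP+/- livers, against 11.22, 10.89, 11.37 and 11.14 in MTAP+/+ livers. MTAP+/- replicates 1 and 3 lay above MTAP+/+ replicate 2, and the change was -0.37 (95% interval -0.70 to -0.04, adjusted p = 0.543 by limma).

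Whether the genes varied together from liver to liver was examined on the 10 lead probe sets after each genotype's mean had been subtracted. Of the 45 pairs 29 had a Pearson correlation above 0 and 16 below, with a median of 0.14 and a range from -0.68 to 0.72. The highest was between Rnf43 and Tbx3 (r = 0.72, exact permutation p = 0.0590, Spearman's rho = 0.69, exact permutation p = 0.109, r = 0.66 without the 2 livers farthest from the median of Rnf43). Gulo and Lect2 followed (r = 0.71, exact permutation p = 0.0365, rho = 0.74, exact permutation p = 0.0313, r = 0.51 without the 2 farthest livers), and then Lgr5 and Rhbg (r = 0.67, exact permutation p = 0.0556, rho = 0.71, exact permutation p = 0.0764, r = 0.31 without the 2 farthest livers). No pair passed after adjustment over the 45 pairs (lowest adjusted p 0.875 for r and 0.844 for rho, two-sided, labels permuted within genotypes). Both genes of a pair were read on the same arrays, so these values also hold whatever the arrays share. Axin2 and Glul, the usual readouts of the pathway, were at r = 0.24 with each other.

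**Figure D3:**
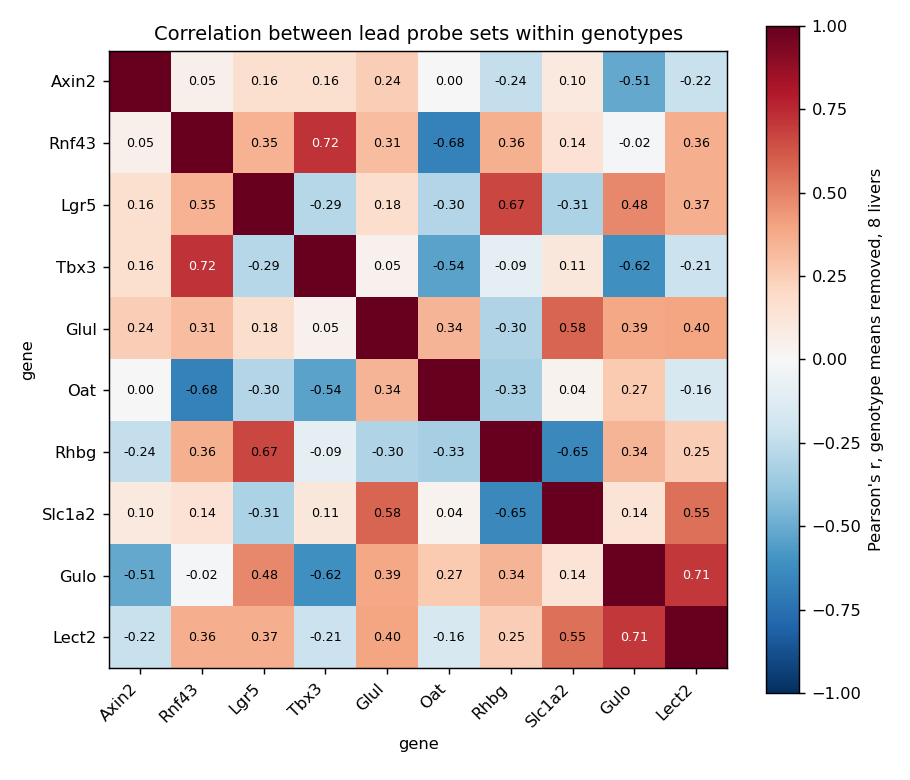
Pearson's r between the lead probe sets of the 10 genes over 8 livers after subtraction of each genotype's mean, with r printed in each cell and the colour scale from -1 to 1. Rnf43 with Tbx3 (0.72) and Gulo with Lect2 (0.71) are highest, and Rnf43 with Oat (-0.68) is lowest.

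The rest of the pathway was described with 1 probe set per gene, the one with the highest mean. None of its listed genes passed the adjusted threshold over all probe sets, which 0.0385% of genes did. Over all genes 54.7% were lower in MTAP+/- liver, and at an unadjusted p under 0.05 by limma 4.89% were lower and 4.47% higher. Of 14 Wnt ligands and R-spondins 11 were lower and 3 higher in MTAP+/- liver (median log2 change -0.09, against -0.02 over all genes), with 0 at an unadjusted p under 0.05 by limma, and 5 lay under the median signal. Wnt2, a ligand made by endothelium near the central vein, had 5.91, 4.64, 5.81 and 5.36 in MTAP+/- livers, against 5.82, 5.59, 6.04 and 5.98 in MTAP+/+ livers (change -0.43, adjusted p = 0.682 by limma). The groups overlapped, and without MTAP+/- replicate 2, by far the lowest, the change was -0.17. Rspo3, the R-spondin of the same endothelium, had 5.74, 5.35, 5.65 and 5.41 in MTAP+/- livers, against 5.72, 6.19, 5.57 and 5.68 in MTAP+/+ livers, again with overlap (change -0.25, adjusted p = 0.698 by limma). Without MTAP+/+ replicate 2, the highest liver, its change was -0.12.

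Receptors, inhibitors and intracellular parts of the pathway were spread around 0. Of 16 receptors 10 were lower and 6 higher (median -0.02), and at an unadjusted p under 0.05 by limma Fzd5, a Frizzled receptor, was lower (-0.42) and Lrp6, the Wnt co-receptor (0.43), and Lgr4, a relative of Lgr5 (0.29), were higher, with adjusted p of 0.515, 0.423 and 0.468. Without MTAP+/- replicate 4 the change of Fzd5 was -0.26. Of 18 inhibitors 12 were lower and 6 higher (median -0.05), with 2 lower at that p, of which Notum, a secreted enzyme that inactivates Wnt proteins and is itself a Wnt target, was at -0.41 (adjusted p = 0.512 by limma) and Draxin, whose signal was under the median, at -0.30. Of 11 genes of the destruction complex and its Dishevelled partners 7 were lower and 4 higher (median -0.08), with Apc, a core scaffold of the complex, at 0.48 (adjusted p = 0.498 by limma). Of 13 nuclear partners of beta-catenin 8 were lower and 5 higher (median -0.01), with Tcf7l2, a TCF factor of liver, at 0.29 (adjusted p = 0.585 by limma).

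Other Wnt targets and other pericentral genes held members of both directions. Of 15 further Wnt targets 8 were lower and 7 higher (median -0.02), 4 of the lower and 1 of the higher at an unadjusted p under 0.05 by limma, where 4.89% and 4.47% of all genes were. Of 16 further pericentral genes 12 were lower and 4 higher (median -0.09), likewise with 4 and 1 at that p. The 2 lists share Cyp1a2 and Nr1i3, among others, and Notum is shared between targets and inhibitors. Nr1i3, the nuclear receptor CAR, had 8.25, 7.97, 7.98 and 7.28 in MTAP+/- livers, against 8.66, 8.58, 8.51 and 8.67 in MTAP+/+ livers, and no liver crossed between groups (change -0.73, adjusted p = 0.275 by limma). Cyp1a2, a pericentral cytochrome P450, had 11.73, 11.54, 11.77 and 11.34 in MTAP+/- livers, against 12.09, 11.86, 12.00 and 12.01 in MTAP+/+ livers, also without overlap (change -0.39, adjusted p = 0.390 by limma). Cyp27a1, another cytochrome P450 on the pericentral list, was lower without overlap too (change -0.30, adjusted p = 0.486 by limma). Its signals were 11.25, 11.32, 11.43 and 11.04 in MTAP+/- livers, against 11.47, 11.48, 11.65 and 11.62 in MTAP+/+ livers. The opposite order held for Cd44, a cell surface receptor of hyaluronan, which had 6.23, 7.68, 6.21 and 6.80 in MTAP+/- livers, against 6.19, 5.99, 6.06 and 5.86 in MTAP+/+ livers (change 0.70, adjusted p = 0.523 by limma, and 0.39 without MTAP+/- replicate 2). It also held for Ang, angiogenin, a secreted ribonuclease, with 13.26, 13.32, 13.32 and 13.39 in MTAP+/- livers, against 12.93, 12.96, 13.11 and 13.24 in MTAP+/+ livers (change 0.26, adjusted p = 0.512 by limma). Cyp2e1, a pericentral cytochrome P450 on both lists, was at 0.01 (adjusted p = 0.981 by limma). Of 15 periportal genes, expressed at the other end of the lobule, 9 were lower and 6 higher (median -0.03), with 2 lower and 1 higher at an unadjusted p under 0.05 by limma. The lower ones were Apoa4, an apolipoprotein, at -1.15 (adjusted p = 0.375 by limma) and G6pc, the glucose-6-phosphatase of gluconeogenesis, at -0.65 (adjusted p = 0.424 by limma), with overlapping groups in both. Whether the 10 targets differed from these lists was not tested.

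**Figure D4:**
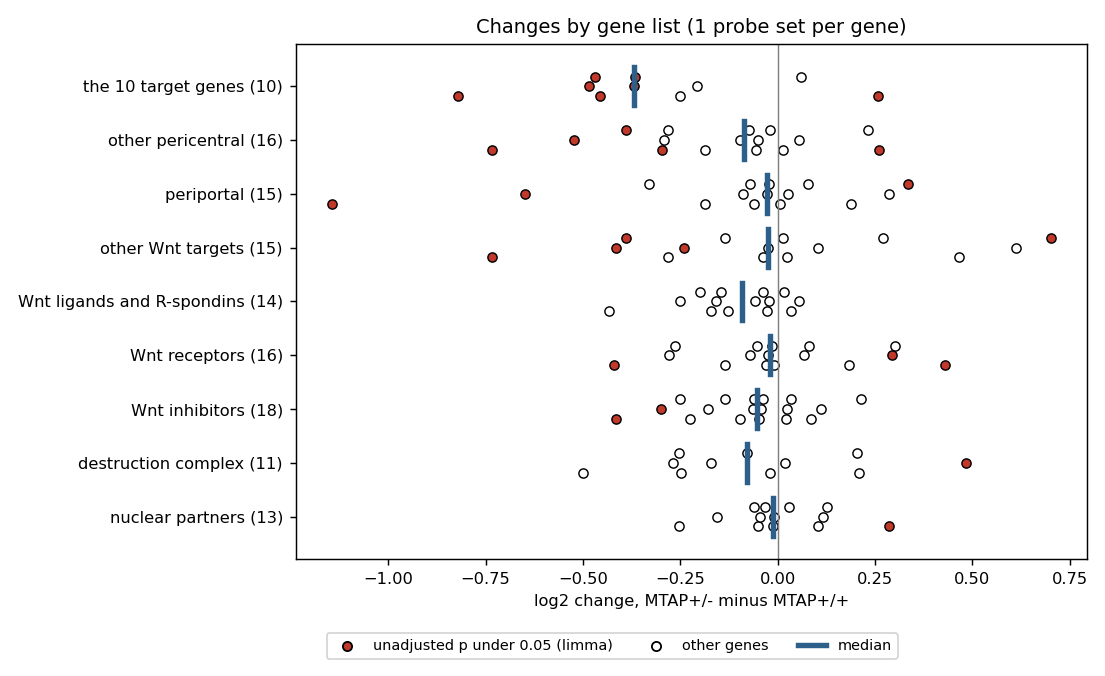
Log2 change between MTAP+/- and MTAP+/+ liver (horizontal axis) of each gene in 9 lists, with 1 probe set per gene and the number of genes in brackets. Red points have an unadjusted p under 0.05 by limma, open points do not, and blue bars are medians. The 10 target genes have a median of -0.37, and the medians of the other lists lie between -0.09 and -0.01.

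Clock genes were also read on these arrays. A clock score, the mean of 8 genes with daytime peaks minus that of 5 genes with night peaks, was 2.27, 2.19, 2.19 and 1.17 in MTAP+/- livers, against -0.0005, 0.60, 0.34 and 0.95 in MTAP+/+ livers, given with no test because its genes too were chosen with results of these arrays known. With this score as a second term the change was -0.17 for Rhbg, -0.75 for Axin2, -0.88 for the lead Tbx3 probe set, -0.76 and -1.01 for the 2 Glul probe sets, -0.63 for Rnf43, -0.36 for the lead Lgr5 probe set, -0.48 for Lect2, -0.41 for Gulo and 0.05 for the lead Slc1a2 probe set, each with an adjusted p of 1 by limma, and 0 of 45037 probe sets were called. The lead changes of Lgr5, Gulo and Oat stayed close to those without the score (-0.36, -0.41 and 0.08, against -0.37, -0.46 and 0.06). Among the other lead probe sets the changes of Rhbg and Slc1a2 were smaller in size with the score. Those of Axin2, Rnf43, Tbx3, Glul and Lect2 were larger. Other probe sets of these genes followed their lead only in part. The second of Glul was also larger in size with the score, as were the second, the fourth and the fifth of Tbx3 (-0.23, -0.32 and -0.24). Others did not follow: the second, the third and the fifth of Slc1a2 were at -0.60, 0.30 and -0.61, the third of Tbx3 at 0.13 and the second of Axin2 at 0.08. The genotypes did not overlap in the score, so genotype and score cannot be told apart in these 8 livers. The changes with the score in the model are therefore a description, and Mtap too was not called in that model.

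Markers of other cells were read on the same arrays, and none was called. Leukocyte markers were higher in MTAP+/- liver in 6 of 6 genes, but by unlike amounts. Ptprc, S100a9, S100a8, Nkg7, Cd79a and Cd3e were at 0.75, 0.74, 0.71, 0.32, 0.22 and 0.01. The log2 of their summed signal was 7.82, 8.76, 8.11 and 8.99 in MTAP+/- livers, against 7.68 to 7.78 in MTAP+/+ livers. MTAP+/- replicates 2 and 4 were thus the highest, and MTAP+/- replicate 1 lay close to the MTAP+/+ livers. Kupffer cell markers were higher in 4 of 6 genes, with summed signals of 11.98 to 12.42 in MTAP+/- livers, against 11.77 to 12.03 in MTAP+/+ livers. They disagreed, with Adgre1, Marco, Cd5l and Vsig4 at 0.78, 0.72, 0.42 and 0.05, and Csf1r and Clec4f at -0.02 and -0.27. MTAP+/- replicate 2 had the lowest Clec4f signal (7.06) and the highest Marco signal (9.97). Cholangiocyte markers were lower in 4 of 5, with 6.55 to 6.79 in MTAP+/- livers, against 6.69 to 6.93 in MTAP+/+ livers. Summed signals overlapped widely for liver endothelium (5 of 8 genes higher, 10.64 to 10.84 in MTAP+/- and 10.54 to 10.76 in MTAP+/+ livers), stellate cells (5 of 7 higher, 11.26 to 11.53 in MTAP+/- and 11.23 to 11.42 in MTAP+/+ livers) and hepatocytes (5 of 5 higher by at most 0.07, 16.37 to 16.49 in MTAP+/- and 16.35 to 16.44 in MTAP+/+ livers). RMA gives no marker a signal of 0. For RNA integrity, control probe sets at the 3' end exceeded those at the 5' end by 0.714 to 1.12 in MTAP+/- livers and 0.880 to 1.04 in MTAP+/+ livers (exact permutation p = 0.743). The part of these measures in the changes of the 10 genes was not tested.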

How the data were processed

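The deposited table holds log2 signals per probe set that the authors made with RMA, as the submitters' processing notes name it. No source used here gives its version or settings. The values, 1.64 to 14.72, show the log2 scale. Of 45101 probe sets 64 controls were left out. Gene names came from the platform annotation, which gave 34945 probe sets 1 symbol, 932 several and 9160 none. One further probe set, shared by Slc1a2 and another gene, was left out by this rule. Values were used as deposited, and limma 3.58.1 in R 4.3.3 (lmFit, eBayes, two-sided) was fitted to all 45037 probe sets with genotype as the term, with Benjamini-Hochberg adjustment over all of them and a threshold of 0.05. It was tested on simulated data. Single values were compared by exact permutation over the 70 assignments of 4 against 4.

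Named were all 10 genes with every probe set, Mtap, and up to 4 genes of smallest p per list. Outside that rule Alb was named as a check of the tissue, and Cyp2e1 and every Kupffer cell and leukocyte marker were named too. The genes, lists and tests were chosen with earlier results of these data known. Samples were grouped by their titles. The labels do not say whether animals shared a litter or batch, so p-values measure the spread between these livers. The number of arrays limits the precision. Same-numbered replicates of both genotypes were not paired by the labels. Alternatives were a filter on dim probe sets, median centring, a second quantile normalisation, array weights and robust eBayes with a trend. Another left out the kinds of probe set marked s, x and a in their names. That setting kept 16 probe sets of the 10 genes and none of Glul or Lect2, so it does not cover these genes. The second probe sets of Tbx3 and Slc1a2 were left out there too. Further alternatives were a replicate block, 1 probe set per gene, the clock score as a covariate and a threshold of 0.1. Each array was also left out in turn. For named genes of the other lists that was added after their values were seen.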

Additional observations from a re-analysis of the deposited data

Results flagged for a closer look

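In 3 of the 42 groups of 4 livers examined (21 probe sets in 2 genotypes) 1 liver stood apart from the other 3 by more than Dixon's 95% critical value for the gap over the range, where chance gives about 1 in 20 groups. For Rhbg, MTAP+/+ replicate 1 was high at 7.82, with the next MTAP+/+ liver at 6.97 and the lowest at 6.88 (ratio 0.909). It bears on the largest change among the 21 probe sets, which was -0.60 without that liver. For the second Lgr5 probe set, MTAP+/+ replicate 3 was low at 3.21, with the next at 3.47 (ratio 0.906). For the dimmest Tbx3 probe set, MTAP+/- replicate 4 was low at 2.29, with the next at 2.52 (ratio 0.864). The Lgr5 and Tbx3 probe sets both lay under the median signal.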

How the results depend on the processing

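Under all 18 alternatives 0 of the member probe sets was called, at an adjusted p under 0.1 as well. The number of called probe sets over the whole array was 16 as reported, 25 with the replicate block, 9 with 1 probe set per gene (adjusted over genes), 0 with the clock score covariate, and 5 to 21 when 1 array was left out (5 without MTAP+/- replicate 1, 7 without MTAP+/- replicate 3, 7, 9 and 6 without MTAP+/+ replicates 1, 2 and 3). Same-numbered livers deviated together in 2 of 4 pairs at a correlation over 0.1 (-0.07 to 0.23), and 2 of the 4 MTAP+/- livers correlated best with their own number. These mixed correlations cannot decide whether same-numbered livers belong together. The labels name no pairing, and the replicate block called 0 of the 21. Lower in MTAP+/- liver were 16 to 18 of the 21 when 1 array was left out, 8 of 10 with 1 probe set per gene, and 16 of 21 with the clock score. The median change, -0.24 as reported, was -0.35 without dim probe sets, -0.37 with 1 probe set per gene, and -0.26 to -0.14 when 1 array was left out, with the value nearest 0 without MTAP+/- replicate 4. The first 2 rest on fewer probe sets by construction. Of 334 values of single member probe sets 318 kept their sign and 16 changed it, none of these called; 15 of the 21 probe sets kept their sign throughout. Sign changes were, with array weights, the second Tbx3 probe set at 0.0163, Oat at -0.0403 and the third Slc1a2 probe set at 0.00114, and, with the clock score, the second Axin2 at 0.0796, the third Tbx3 at 0.13, the third Slc1a2 at 0.30 and the fourth Slc1a2 at -0.14. When 1 array was left out they were in Tbx3 (the second at -0.24 to 0.13, the third at -0.123 to 0.0472), Oat (-0.0399 to 0.14) and Slc1a2 (the third at -0.0623 to 0.0392). The cause was not tested. Dim signals, compressed by RMA, limit the 7 probe sets under the median.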
